A study of Mus musculus with 6 samples.

Results

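The genes described here are 42 genes of the interferon response and of RNA sensing, measured in mouse cortical neuron cultures after knockdown of Cugbp1, the older name of Celf1. They were chosen by symbol from the known biology of the pathway, as receptors of foreign RNA, their adaptors, interferon receptors, transcription factors, interferon-stimulated effectors and secreted or surface products. Of the 42 symbols, 40 had probe sets of their own on the array, and 33 had the minimum of 3 sufficiently bright probe sets and were tested among 16532 genes in all. Isg15 and Mavs had no probe set under these symbols in the annotation used. Tlr7, Ifit1, Ifit3, Oas1a, Mx1, Ifi44 and Rtp4 had 1 or 2 bright probe sets each and were not tested.

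Cells detect viral RNA through receptors in the cytoplasm and in endosomes, which signal through adaptor proteins to transcription factors of the IRF family and so to type I interferon. Interferon secreted by a cell binds receptors on its own surface and on neighbouring cells. There, transcription factors such as STAT2 and IRF9 switch on a large set of antiviral genes, some of which encode RNA receptors. Neurons carry this pathway too, and it is known in the nervous system for its part in antiviral defence and in inflammatory disease.

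The cultures were cortical cells of C57Bl/6 embryos at embryonic day 15, treated with AraC against dividing cells. Both groups received a lentivirus for 4 hours on day 5 of culture, carrying either a control short hairpin RNA (shRNA) or an shRNA against Cugbp1, and were harvested on day 11 after 6 further days. Each group had 3 arrays, made from 100 ng of total RNA per array. No array of uninfected cells was used here, so every comparison is between 2 infected groups, and the effect of lentivirus or hairpin RNA as such was not measured. The labels do not say that the arrays of a group came from separate cultures, so p-values measure the spread between arrays, which may be technical. For replicates 2 and 3 of each group the treatment field mentions Tdp-43 where the titles give Cugbp1 or control, and the series' design mentions motor neurons.

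Celf1 checked the knockdown. It measured 10.8 ± 0.05 (SD, n = 3) on the log2 scale in control cultures and 9.44 ± 0.14 (SD, n = 3) with the Cugbp1 shRNA, which left 39.1% of the control level (95% confidence interval 33.3% to 45.9%; limma adjusted p = 0.0124). With 1 array left out at a time the Celf1 change stayed between -1.43 and -1.29, and the adjusted p, 0.029 without control replicate 1, was 0.0537 to 0.142 without any of the other arrays. The array medians of all probe sets lay between 5.74 and 5.78. Of 15 neuron markers tested, 11 had a change below 0 (median -0.053 over the list), and Gad2 alone passed, as higher (log2 change 0.77, adjusted p = 0.02). Of 14 fibroblast and vascular markers, Pdgfrb was lower (-0.80, adjusted p = 0.0414). None of 12 astrocyte and none of 15 microglia markers passed without the replicate block, and 1 astrocyte and 0 microglia markers had an unadjusted limma p under 0.05. Changes below 0 were found for 12 of 15 microglia markers (median -0.072) and 8 of 12 astrocyte markers (median -0.067). The same held for 9 of 14 fibroblast and vascular markers (median -0.02), and for 8842 of all 16532 genes tested. The samples are bulk RNA, in which fewer cells of a type and less RNA per cell cannot be told apart.

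The RNA sensors Ddx58 and Eif2ak2 rose with the Cugbp1 shRNA, and no tested member passed as lower without a block. These 2 of 33 members passed at an adjusted p under 0.05 over all genes, as higher, where 1.09% of all tested genes passed as higher and 3.94% passed in either direction. Same-numbered arrays of the groups deviated together, though differently numbered arrays were not compared, so pairing by number was assumed. A second model that adds the replicate number as a block called 10 of 33 members, 8 higher and 2 lower. That share, 30.3%, stands beside 23.2% of all genes called in the same blocked fit, 9.34% as higher and 13.9% as lower. The groups did not overlap for 8 of 33 members, or 24.2%, beside 25.2% of all genes, so over the set as a whole the count of separated groups was near the background. Of the 33 changes, 21 were above 0 and 12 below, with a median of 0.107 on the log2 scale beside -0.015 over all genes tested.

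**Figure D1:**
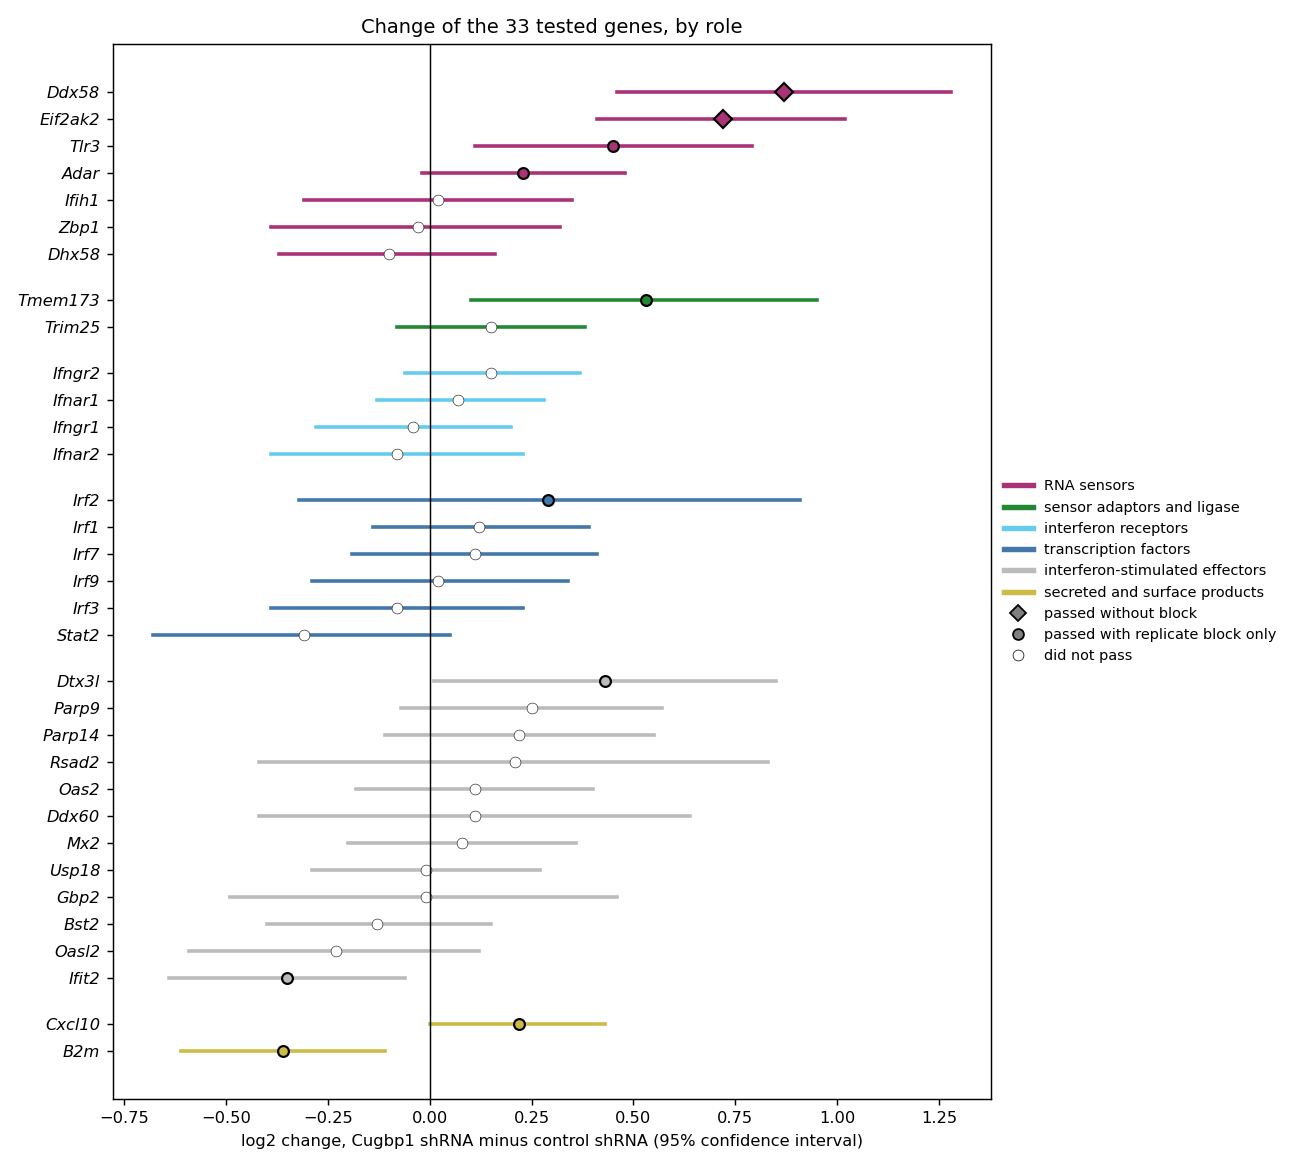
Log2 change (Cugbp1 shRNA minus control shRNA) of the 33 tested interferon and RNA-sensing genes, ordered within role groups, with 95% confidence intervals from the fit without a block as horizontal lines. Diamonds mark Ddx58 (0.87) and Eif2ak2 (0.72), which passed without the block, filled circles the 8 genes that passed only with it, and open circles the rest.

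Among the sensors of foreign RNA, 2 of 7 tested genes rose, and 4 of 7 were higher in the blocked fit. Ddx58 encodes RIG-I, the cytoplasmic helicase that binds viral RNA ends bearing a triphosphate. Its log2 values were 7.05, 6.95 and 6.68 on control arrays 1 to 3 and 7.41, 8.04 and 7.82 on the Cugbp1 shRNA arrays 1 to 3. Every knockdown array lay above every control array, and knockdown replicate 1 was nearest to the controls. The change was 0.87 (SE 0.18), a rise of 1.82-fold (95% confidence interval 1.37 to 2.42), with a limma adjusted p = 0.0428 and 0.0133 with the replicate block. By replicate number, the difference was 0.37 for replicate 1, 1.09 for replicate 2 and 1.14 for replicate 3.

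Eif2ak2 encodes PKR, the kinase that double-stranded RNA activates to phosphorylate the initiation factor eIF2α and halt translation. Control arrays 1 to 3 gave 6.96, 6.94 and 6.64, and knockdown arrays 1 to 3 gave 7.36, 7.69 and 7.63. Again no array of one group reached the other, and the smallest difference was that of replicate 1. Eif2ak2 rose by 0.72 (SE 0.13), or 1.64-fold (95% confidence interval 1.33 to 2.03), with a limma adjusted p = 0.0342 and 0.00924 with the block. Neither gene passed when any 1 of the 6 arrays was left out. The adjusted p then ranged from 0.0721 to 0.266 for Ddx58, with a change of 0.63 to 0.98, and from 0.0771 to 0.198 for Eif2ak2, with a change of 0.55 to 0.77. Without the brightness filter the adjusted p was 0.0523 for Ddx58 and 0.071 for Eif2ak2; Ddx58 also missed the threshold with means of probe sets (0.0574), and Eif2ak2 with a filter at the 75th percentile (0.0763).

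Tlr3, the endosomal receptor of double-stranded RNA, measured 7.50, 7.96 and 7.84 in control cultures and 8.13, 8.40 and 8.11 with the Cugbp1 shRNA. The groups did not overlap. Its change of 0.45 (SE 0.15) had an adjusted p = 0.148 without the block and 0.0141 with it, and was 0.29 when Cugbp1 shRNA replicate 2 was left out. With a filter at the 75th percentile and no block, Tlr3 changed by 0.46. It then passed narrowly, with a limma adjusted p that rounds to 0.05. Adar, whose product edits adenosine to inosine in double-stranded RNA, measured 10.08, 10.23 and 10.23 in controls and 10.24, 10.52 and 10.48 with the Cugbp1 shRNA. The lowest knockdown array was barely above the highest control array. Adar's change of 0.23 (SE 0.11) had an adjusted p = 0.309, and 0.0381 with the block.

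The other tested sensors stayed near 0 and did not pass in either fit. Ifih1 encodes MDA5, the sensor of long double-stranded RNA and the closest relative of RIG-I in function. It measured 6.17, 6.50 and 6.33 in controls and 6.10, 6.53 and 6.42 with the Cugbp1 shRNA, with overlapping groups. The change was 0.02 (SE 0.14; 95% confidence interval -0.31 to 0.35; adjusted p = 0.977, with the block 0.857). Dhx58 encodes LGP2, a helicase of the same family that modulates the other two. Its values were 6.66, 6.61 and 6.43 against 6.58, 6.50 and 6.30, a change of -0.10 (95% confidence interval -0.37 to 0.16; adjusted p = 0.731). Zbp1, a sensor of left-handed nucleic acid helices, measured 7.45, 7.79 and 7.83 against 7.43, 7.67 and 7.88, a change of -0.03 (95% confidence interval -0.39 to 0.32; adjusted p = 0.963). Thus 2 of the 3 RIG-I-like helicases had intervals whose upper bounds, 0.35 and 0.16, lay below the lower bound of 0.46 for Ddx58. The difference between these genes was not itself tested. Ifih1 kept 10 of 27 probe sets. Over all 27 its control mean was 5.48, below the limit of 5.73 for a bright probe set, and its difference was 0.15. Dhx58 kept 9 of 15, with a control mean of 5.96 and a difference of -0.10 over all. Ddx58 kept 19 of 28, with 6.56 and 0.69 over all.

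The promoters of many of these genes hold letters that resemble the interferon-stimulated response element (ISRE), a sequence bound by proteins of the IRF family. The search used TTTC, any 2 bases and TTTC, on both strands, in windows from 250 bases before to 50 bases after each RefSeq start (build GRCm38.p6). RefSeq promoters were matched for 31 of the 42 genes, and 15 of these 31, or 48.4%, held the letters, beside 3.99% of 27025 genes in the table and 3.44% of 32851 promoters. The windows below are shown because Ddx58 and Eif2ak2 rose, Ifih1 and Stat2 did not pass, and Cxcl10 and B2m moved in opposite directions in the blocked fit. Each is printed 5′ to 3′ on the gene's strand, with the matching bases in capitals and up to 10 bases on each side.
Ddx58: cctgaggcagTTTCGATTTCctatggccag
Eif2ak2: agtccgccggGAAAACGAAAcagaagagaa
Ifih1: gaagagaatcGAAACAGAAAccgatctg
Stat2: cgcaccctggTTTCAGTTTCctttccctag
Cxcl10: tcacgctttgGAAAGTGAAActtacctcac
B2m: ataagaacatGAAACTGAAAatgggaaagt

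The matches of Ddx58 (window chr4:40239804-40239833, minus strand), Eif2ak2 (chr17:78882535-78882564, minus strand) and Ifih1 (chr2:62646206-62646233, minus strand) lie at or after the start of transcription. They begin at bases 3, 19 and 33 of the transcript. The flank printed before the Ddx58 match reaches upstream of the start. The windows of Stat2 (chr10:128270266-128270295, plus strand), Cxcl10 (chr5:92349083-92349112, minus strand) and B2m (chr2:122147538-122147567, plus strand) lie upstream. Their matches begin at -222, -213 and -139. Capitals that read GAAA at both ends are the same motif on the opposite strand. A match describes letters in this window only and is not evidence of binding.

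Genes with and without the letters were both found among those that passed with the block. Of the 15 genes with them, 11 were tested, with a median change of 0.11 and a range of -0.36 to 0.87; 2 rose, and the blocked fit called 4 higher and 1 lower. Of the 16 matched genes without them, 14 were tested, with a median of 0.09 and a range of -0.35 to 0.45; the blocked fit called 3 higher and 1 lower. The windows of Tlr3, Adar, Ifit2 and Dtx3l did not hold the letters. The letters TTCNNNGAA of the gamma-activated site (GAS), an element of interferon-γ target genes, read the same on both strands and were found in 9 of 31 genes, or 29%, beside 9.55% of all genes. Eif2ak2 held both motifs, apart from each other, with the GAS letters at chr17:78882732-78882760.
Eif2ak2 GAS: ctgcagagctTTCCCAGAAtggaagccag

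Of the sensors' adaptors and ligases, 2 of 3 were tested and neither passed without the block, while 1 had an unadjusted limma p under 0.05. Tmem173 encodes STING, the adaptor in the endoplasmic reticulum that relays signals of cytoplasmic DNA and connects to RIG-I signalling. It measured 6.06, 6.29 and 6.70 in controls and 6.65, 6.92 and 7.05 with the Cugbp1 shRNA. The groups overlapped, since control replicate 3 exceeded knockdown replicate 1, yet all 3 same-numbered differences were positive (0.60, 0.63 and 0.35). The change of 0.53 (SE 0.18) had an adjusted p = 0.168 without the block and 0.00711 with it. Trim25, the ubiquitin ligase that modifies RIG-I, measured 6.57, 6.38 and 6.65 against 6.68, 6.70 and 6.68, a change of 0.15 (SE 0.10; adjusted p = 0.49, with the block 0.188). D430028G21Rik, which RefSeq lists as a synonym of Mavs, the mitochondrial adaptor of RIG-I, changed by -0.14 (SE 0.10; adjusted p = 0.578, with the block 0.179). It was no member by symbol.

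None of the 4 interferon receptor chains passed in either fit, and 0 had an unadjusted limma p under 0.05. Ifngr2, a chain of the interferon-γ receptor, measured 12.27, 12.09 and 12.12 in controls and 12.34, 12.25 and 12.35 with the Cugbp1 shRNA. Its change of 0.15 (SE 0.09) had an adjusted p = 0.45. Ifnar1 and Ifnar2 together form the receptor of type I interferon. Ifnar1 measured 9.81, 9.72 and 9.66 against 9.79, 9.86 and 9.76, a change of 0.07 (95% confidence interval -0.13 to 0.28; adjusted p = 0.764). Ifnar2 measured 9.72, 9.54 and 9.23 against 9.50, 9.36 and 9.39, a change of -0.08 (95% confidence interval -0.39 to 0.23; adjusted p = 0.857). Ifngr1 changed by -0.04 (95% confidence interval -0.28 to 0.20; adjusted p = 0.911). All 4 intervals thus stayed below a change of 0.4 in either direction.

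Of 6 transcription factors, none passed without the block, none had an unadjusted limma p under 0.05, and Irf2 passed with the block. Irf2 binds the same elements as Irf1 and is best known as its antagonist. Its values were 8.18, 8.95 and 8.82 in controls and 8.45, 9.20 and 9.17 with the Cugbp1 shRNA. Replicate 1 was lowest in both groups, and the same-numbered differences were 0.27, 0.25 and 0.35. The change of 0.29 had an SE of 0.26 and an adjusted p = 0.661 without the block, and an SE of 0.06 and an adjusted p = 0.018 with it. Over the fits that left out 1 array, without the block, the change ran from 0.02 (control replicate 1 left out) to 0.53 (Cugbp1 shRNA replicate 1 left out).

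Stat2, which carries the type I interferon signal to the nucleus, pointed the other way. It measured 9.74, 9.56 and 9.62 in controls and 9.68, 9.13 and 9.17 with the Cugbp1 shRNA, so knockdown replicate 1 lay among the controls and the other two below them. Its change of -0.31 (SE 0.16) had an adjusted p = 0.351, and 0.0546 with the block. Irf1 measured 6.62, 6.75 and 6.99 against 6.87, 6.98 and 6.89 and changed by 0.12 (SE 0.11; adjusted p = 0.674). Irf3 (-0.08), Irf7 (0.11) and Irf9 (0.02) did not pass either, with adjusted p from 0.758 to 0.967. Irf3 and Irf7 drive the interferon genes themselves.

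No tested effector that interferon induces passed without the block. Of 19 listed, 12 were tested, and Isg15, Ifit1, Ifit3 and Mx1 were among those that were not. An unadjusted limma p under 0.05 was found for 1 higher and 1 lower effector, or 16.7%, beside 18.8% of all genes. The median change was 0.094. Ifit2, which binds viral RNA and limits its translation, measured 7.05, 7.16 and 6.81 in controls and 6.68, 6.79 and 6.51 with the Cugbp1 shRNA. All knockdown arrays lay below all controls, and the same-numbered differences were -0.37, -0.37 and -0.30. The change of -0.35 (SE 0.12) had an adjusted p = 0.183, and 0.0101 with the block.

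Dtx3l encodes an E3 ubiquitin ligase that works in complex with Parp9. It measured 6.44, 6.83 and 6.64 in controls and 6.70, 7.33 and 7.17 with the Cugbp1 shRNA. The groups overlapped. The change of 0.43 (SE 0.18) had an adjusted p = 0.256, and 0.0119 with the block. Parp9 measured 6.09, 6.09 and 6.29 against 6.13, 6.57 and 6.53, a change of 0.25 (SE 0.14; adjusted p = 0.402, with the block 0.0993).

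The other 9 tested effectors passed in neither fit. Parp14, an ADP-ribosyltransferase, changed by 0.22. Rsad2, which encodes the antiviral enzyme viperin, changed by 0.21 with an SE of 0.27. Oas2 (0.11) and Oasl2 (-0.23) belong to the family of oligoadenylate synthetases, which double-stranded RNA activates. Mx2 (0.08) and Gbp2 (-0.01) encode antiviral GTPases, and Ddx60 (0.11) a helicase linked to RIG-I. Bst2 (-0.13) encodes tetherin, which holds budding virus at the cell surface, and Usp18 (-0.01) a protease that removes ISG15 and dampens receptor signalling.

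The 7 members with too few bright probe sets lay below the brightness limit of 5.73 when all their probe sets were used. Ifit1 then averaged 5.29 ± 0.57 (SD, n = 3) in controls and 5.29 ± 0.34 (SD, n = 3) with the Cugbp1 shRNA. Mx1 averaged 4.38 ± 0.04 (SD, n = 3) and 4.45 ± 0.08 (SD, n = 3), and Ifit3 averaged 2.85 ± 0.22 (SD, n = 3) and 3.20 ± 0.20 (SD, n = 3). Their differences, from -0.16 for Oas1a to 0.35 for Ifit3, are descriptions without a test. Some tested members also lay below the limit on this measure. Examples are Ddx60 (control mean 3.53, 4 of 47 probe sets kept), Gbp2 (4.82, 4 of 13) and Parp14 (4.83, 12 of 34). Oas2 (5.14, 8 of 22) and Mx2 (5.30, 5 of 19) did too. The tests of these genes used their brighter probe sets alone. Another 15 probe sets of Oas1a and 3 of Ifit3 carried a second gene's symbol as well and were not used, so these paralogs are uncertain here.

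The secreted and surface products pointed in opposite directions, and neither passed without the block. Cxcl10, the chemokine that attracts T cells, measured 6.75, 6.70 and 6.83 in controls and 7.03, 6.87 and 7.03 with the Cugbp1 shRNA. The groups were narrowly apart, and the change of 0.22 (SE 0.09) had an adjusted p = 0.267, and 0.045 with the block. B2m, the light chain of every MHC class I molecule, measured 12, 11.84 and 11.73 in controls and 11.62, 11.44 and 11.44 with the Cugbp1 shRNA. All 3 knockdown arrays lay below the controls. The change of -0.36 (SE 0.11), which left 77.8% of the control level, had an adjusted p = 0.118, and 0.0101 with the block.

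**Figure D2:**
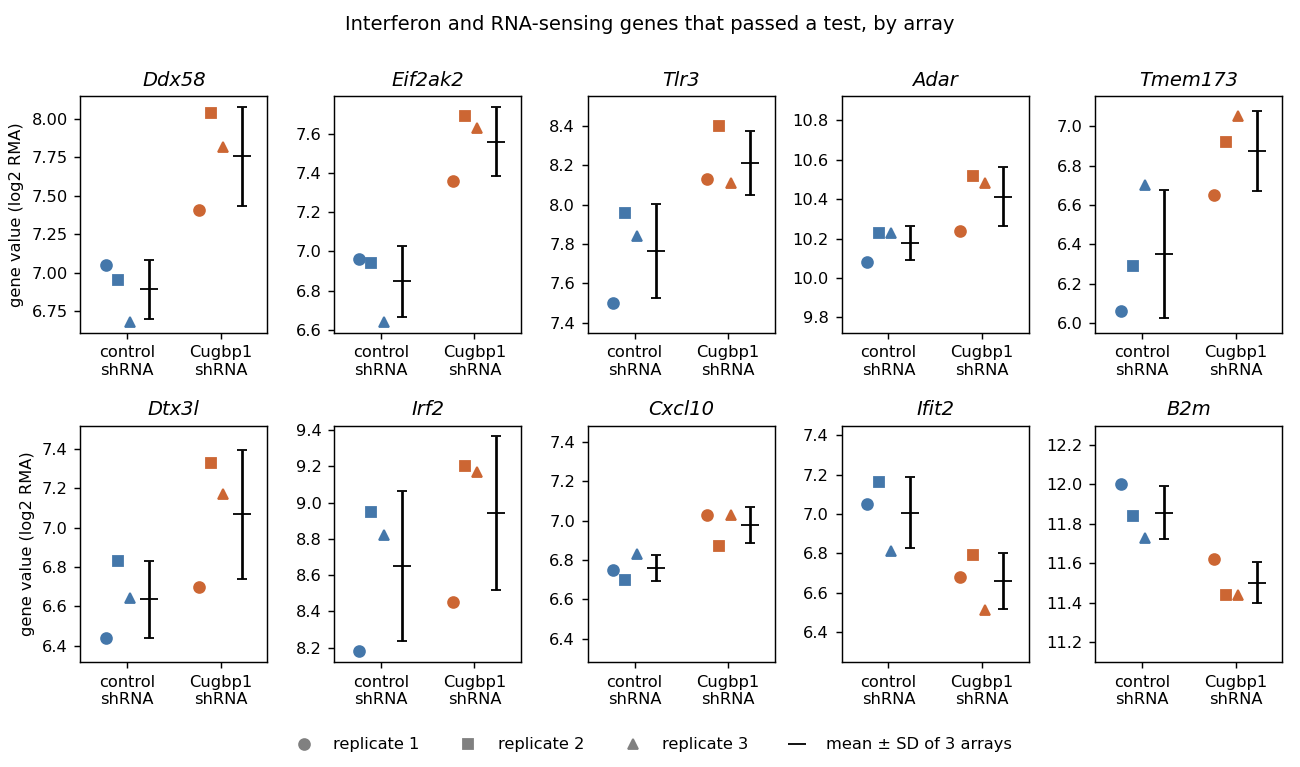
Gene values (log2 RMA) on each of the 6 arrays for the 10 genes that passed with or without the replicate block, with symbols for the replicate number and bars for the mean ± SD of 3 arrays; the vertical axes do not start at 0 and differ between panels. Ddx58 and Eif2ak2 show a gap between the groups, while Tmem173, Dtx3l and Irf2 overlap and differ mainly within same-numbered arrays.

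Single probe sets, each covering part of an exon or an exon, showed how evenly a gene moved. No probe set of the 597778 tested passed by limma at an adjusted p under 0.05 with or without the block. Of the 346 kept probe sets of members, 41 (11.8%) had an unadjusted p under 0.05, beside 5.92% of all probe sets. The latter include probe sets without a gene symbol, so the 2 shares are not of like sets. Ddx58 held 12 of the 41 and Eif2ak2 held 9. At the gene level the shares were 21.2% of members and 18.8% of all genes. For Ddx58, 18 of 19 kept probe sets were higher in the knockdown. The changes ran from -0.01 to 1.40 with a median of 0.86, and 4 probe sets lay between -0.01 and 0.16. For Eif2ak2, all 12 kept probe sets were higher, from 0.04 to 1.04.

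In genes that passed only with the block in the main fits, nearly all probe sets lay on one side of 0. Tlr3 had 14 of 15 probe sets higher, Adar 24 of 24, Tmem173 7 of 7, Dtx3l 7 of 7, Irf2 9 of 9 and Cxcl10 5 of 6, the last from -0.18 to 0.71. Ifit2 had 6 of 6 lower, from -0.54 to -0.20, and B2m 5 of 5 lower, from -0.99 to -0.26. Probe sets of 1 gene measure the same RNA and are not replicates. The gene value is made from these probe sets, so their shared side adds no separate support for a call. Among members that passed in neither fit, Stat2 had 27 of 28 lower and Ifngr2 had 9 of 10 higher. Oas2 had 4 higher and 4 lower.

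**Figure D3:**
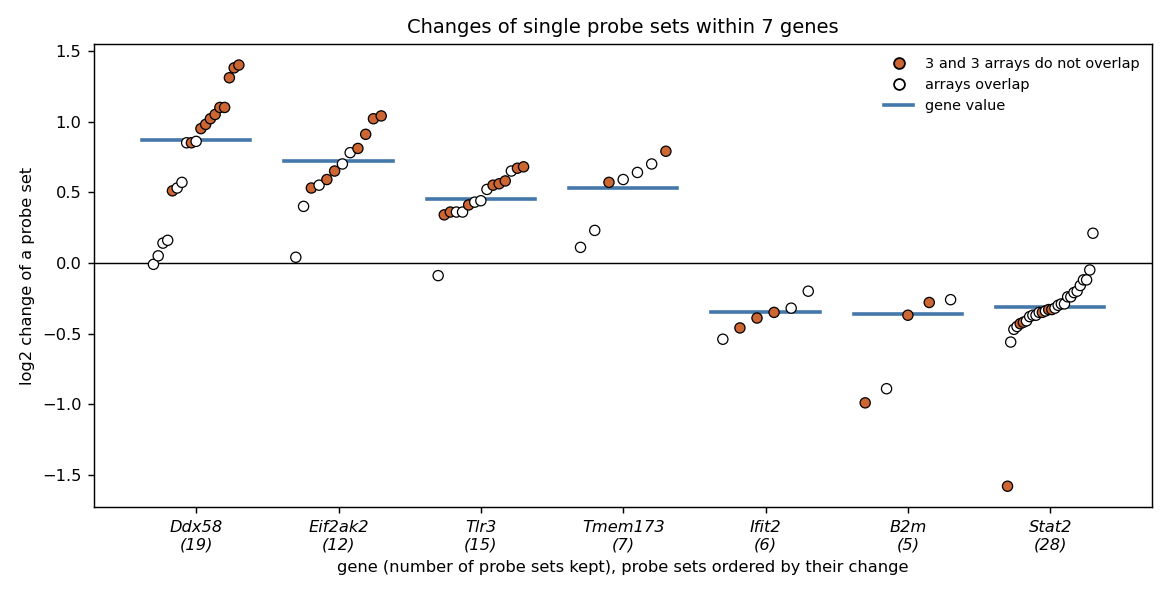
Log2 change (Cugbp1 shRNA minus control shRNA) of each kept probe set of 7 genes, ordered within a gene; filled points have 3 and 3 arrays that do not overlap, and the bar is the gene's own change. Ddx58 spreads from -0.01 to 1.40, and 1 probe set of Stat2 lies at -1.58, apart from the other 27.

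Exon usage was examined because Celf1 encodes a splicing regulator. The test sets each probe set against the rest of its gene. It called 1 of at most 346 member probe sets, in Stat2, where 0.0821% of 244785 probe sets were called over all genes. This Stat2 probe set (4719328) measured 7.93, 7.59 and 6.57 in controls and 6.52, 6.11 and 4.74 with the Cugbp1 shRNA. The groups were narrowly apart, and replicate 3 was lowest in both. Relative to the rest of Stat2 it fell by 1.29 (SE 0.29; limma diffSplice adjusted p = 0.0329, with the block 5.87e-08). The call was lost when control array 1 was left out (adjusted p = 0.225), and likewise control array 2 or knockdown array 3 (adjusted p = 1 for each); over all 6 such fits the relative change ran from -1.65 to -0.85. It was also lost with a test that gives each probe set a spread of its own, where the relative change was -1.26 and the adjusted p = 1. The position of this probe set in Stat2 was not used here.

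With the block, the exon usage test called 3 of at most 346 member probe sets, a smaller share than the 2.37% called over all probe sets. The other two were 1 of Ifngr2 (5148229), lower than the rest of its gene by a log2 difference of -0.70 (adjusted p = 0.00624), and 1 of Stat2 (5084203), higher by 0.57 (adjusted p = 0.0344).

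A wider list of 62 other interferon pathway genes, of which 53 were tested, held 4 genes that fell and none that rose, where 2.85% of all genes passed as lower. The median change was -0.024, and 5 higher and 6 lower had an unadjusted limma p under 0.05, or 20.8%, beside 18.8% of all genes. With the block 6 were higher and 6 lower, or 22.6%, beside 23.2% of all genes, so both counts were near the background. H2-K1 and H2-D1 encode heavy chains of MHC class I, the molecules that show peptides to T cells and pair with B2m. H2-K1 measured 9.71, 9.39 and 8.99 in controls and 8.40, 8.35 and 8.01 with the Cugbp1 shRNA. It fell by 1.11 (SE 0.19), to 46.3% of the control level (95% confidence interval 33.8% to 63.4%; adjusted p = 0.0308). H2-D1 measured 9.74, 9.69 and 9.60 against 9.05, 8.69 and 8.63 and fell by 0.89 (SE 0.13), to 54.1% (95% confidence interval 44% to 66.6%; adjusted p = 0.0198). Class I genes are near-identical in parts, so which of them a probe set measures is uncertain.

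Tap1, a subunit of the transporter that carries peptides to class I molecules, measured 7.88, 8.15 and 7.78 in controls and 7.25, 7.37 and 7.25 with the Cugbp1 shRNA. It fell by 0.65 (SE 0.12; adjusted p = 0.033). Cmpk2, a mitochondrial nucleotide kinase that interferon induces, measured 9.76, 9.83 and 9.67 against 9.07, 9.28 and 9.36 and fell by 0.52 (SE 0.11; adjusted p = 0.045). For all of these 4 genes the groups did not overlap. The same held for 14 of the 53 tested genes on the list (26.4%), beside 25.2% of all genes. None passed when any 1 array was left out, with adjusted p from 0.0645 to 0.259. Without the brightness filter Tap1 (adjusted p = 0.0764) and Cmpk2 (0.0605) missed the threshold too. With replicates 2 and 3 alone H2-K1 (0.0551), Tap1 (0.0663) and Cmpk2 (0.0943) missed it, and H2-D1 (0.0373) passed. With 1 kept probe set as the minimum, H2-K1 (0.0559), Tap1 (0.0589) and Cmpk2 (0.077) missed it, and H2-D1 (0.0395) passed. Cmpk2 also missed it with means of probe sets (0.0557) and with median centring (0.0517). Other genes of class I antigen presentation on the list did not pass in either fit: Tapbp changed by 0.19, Psmb8 by 0.07, Psmb9 by 0.07 and Nlrc5, their transcriptional coactivator, by -0.03.

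The next 4 genes by p did not pass without the block and passed with it. Without the block but with a brightness filter at the 75th percentile, Trim56 (adjusted p = 0.0104) and Prkra (0.0447) passed, and so did Trim56 with replicates 2 and 3 alone (0.0475). Leaving out 1 knockdown array lowered the change to 0.22 for Trim56 (replicate 3) and to 0.23 for Apobec3 (replicate 2). Trim56, a ubiquitin ligase, measured 7, 7.18 and 7.22 in controls and 7.53, 7.55 and 7.54 with the Cugbp1 shRNA, a change of 0.41 (SE 0.09; adjusted p = 0.0597, with the block 0.0102). Apobec3, a cytidine deaminase that restricts retroviruses, measured 6.74, 6.82 and 6.84 against 7.02, 7.33 and 7.29, a change of 0.41 (SE 0.11; adjusted p = 0.0858, with the block 0.0104). Prkra encodes PACT, a protein activator of PKR. It pointed down while Eif2ak2 rose, with 8.22, 8.09 and 8 in controls and 7.79, 7.71 and 7.73 in the knockdown (-0.36, SE 0.09; adjusted p = 0.0832, with the block 0.0117). Samd9l, an antiviral factor, changed by -0.68 (SE 0.21; adjusted p = 0.135, with the block 0.0233). Jak1 (-0.02) and Tyk2 (0.06), the kinases of the type I receptor, and the feedback inhibitor Socs1 (0.01) did not pass in either fit, and Ifnb1 was not tested.

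**Figure D4:**
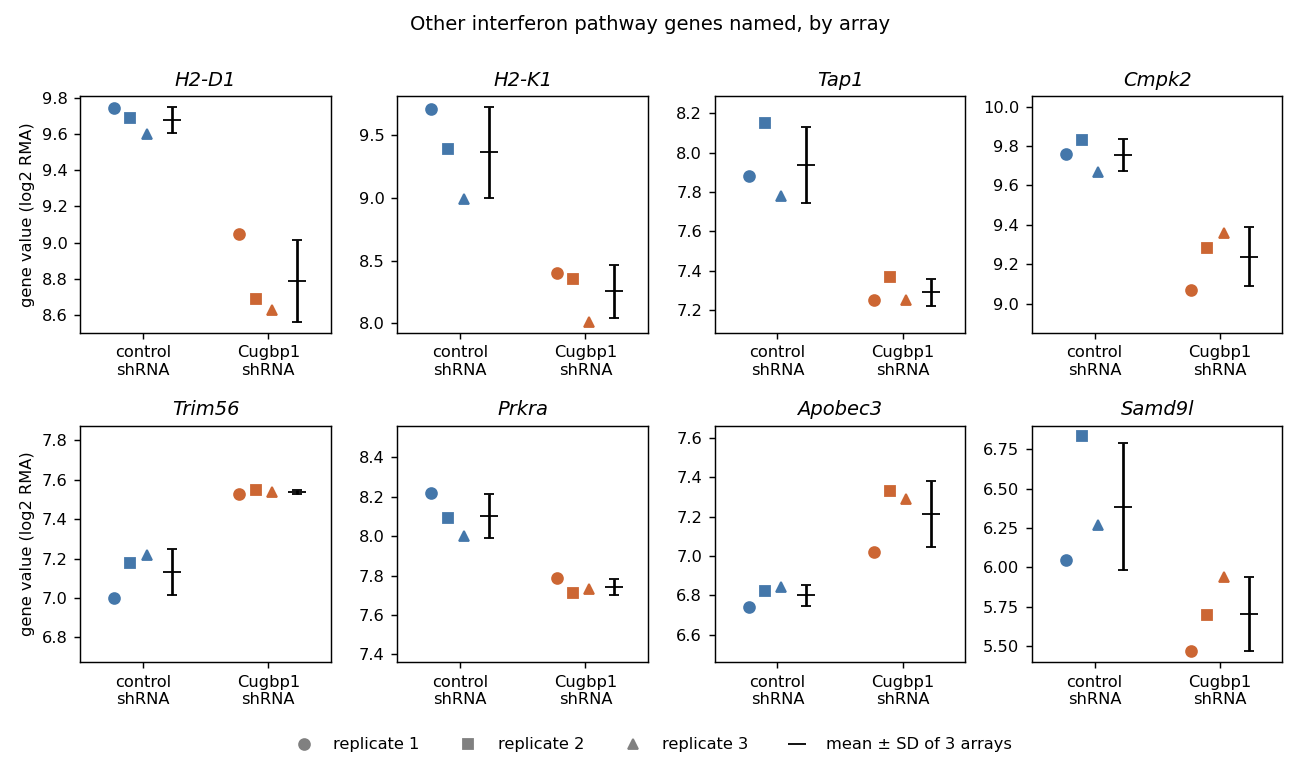
Gene values (log2 RMA) on each of the 6 arrays for 8 other interferon pathway genes, with symbols for the replicate number and bars for the mean ± SD of 3 arrays; the vertical axes do not start at 0 and differ between panels. H2-D1, H2-K1, Tap1 and Cmpk2 passed as lower without the block. The groups of all 8 genes, which were picked by smallest p, do not overlap. Over the list this held for 14 of 53 tested genes (26.4%), beside 25.2% of all genes.

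Glial and vascular cells also express MHC class I and interferon-induced genes, and their markers are given beside these results. The 15 microglia markers tested summed to a linear signal of 1450 to 1530 over the control arrays and 1330 to 1470 over the knockdown arrays, and C1qa was lower with the block (-0.23, adjusted p = 0.0362). The 12 astrocyte markers summed to 18800 to 20600 and 19100 to 20200, with Mlc1 (-0.53) and Aldh1l1 (-0.21) lower with the block. The 16 fibroblast and vascular markers with probe sets, of which 14 were tested, summed to 3220 to 3770 and 3090 to 4050, with Pdgfrb lower in both fits. The 15 neuron markers summed to 57300 to 64000 and 56200 to 61000, with Gad2 and Gad1 (0.46, adjusted p = 0.00824) higher and Dcx (-0.45, adjusted p = 0.00503) and Neurod6 (-0.31, adjusted p = 0.0267) lower with the block. Summed levels of all 4 marker lists overlapped between the groups, and their part in the results was not tested.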

How the data were processed

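The authors deposited 1 log2 RMA value per exon probe set and array. Per the submitters' processing notes, these were made with Affymetrix Expression Console, and mm9 is named there too. RMA equalises arrays, which removes differences in total signal. Probe set positions were not used here.

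Of 1195555 probe sets, 597778 had a mean over the 6 arrays at or above the median, 5.73, and were kept. The platform annotation gave 1 symbol to 317245 probe sets, and symbols were updated through RefSeq synonyms (GRCm38.p6), members excepted. Genes with at least 3 kept probe sets of their own (16532) were summarised by Tukey median polish and tested, Cugbp1 shRNA minus control, with limma 3.58.1 in R 4.3.3 (lmFit, eBayes, two-sided, Benjamini-Hochberg over all genes, called at an adjusted p under 0.05). Probe sets were tested likewise, and exon usage with limma's diffSplice, which assumes 1 spread per gene. Other software was data.table (version 1.17.8), pandas 2.3.3 and matplotlib 3.10.9.

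The unnumbered array of each group was taken as replicate 1. Deviations from group means correlated at 0.76, 0.50 and 0.71 between same-numbered arrays, across genes. Differently numbered arrays were not compared in this way. A difference of replicate 1 from the rest, shared by the groups, could also make the other values positive. These correlations therefore cannot show that each number pairs its arrays. The pairing was assumed, and calls made only with the block rest on it. A blocked fit, with the replicate number added to the model, stands beside results whose call it changes. The labels do not say what a number marks.

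The members, the lists and the named-gene rule were chosen with earlier results of these data known. The rule names members called in either fit, the 3 with the smallest p per role, members with groups apart and a log2 change of at least 0.3, up to 8 other pathway genes called in either fit by smallest p, and up to 6 called probe sets. Genes named beyond it, such as Tapbp, Psmb8, Psmb9, Nlrc5, Jak1, Tyk2 and Socs1, were chosen after their values were seen. Alternatives were the block, 3 other filters on brightness or probe sets per gene, means of probe sets, 2 renormalizations, another variance model, an adjusted p under 0.10 and leaving out each array. Using replicates 2 and 3 alone was added after seeing the data.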

Additional observations from a re-analysis of the deposited data

How the results depend on the processing

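With 3 arrays a group, the counts of calls depended on the processing. With the replicate block, 8 members were higher and 2 lower, 3834 genes were called in all, 6 other pathway genes were higher, 8 marker genes were called and 3 member probe sets passed for exon usage. Under the main settings, the block lifted all 8 members named above as passing with it alone and ended no call. Without a brightness filter 0 members were higher, 2 other pathway genes were lower and the members' median change was 0.065. With 1 kept probe set per gene as the minimum, the corresponding values were 0, 1 and 0.077, with 261 genes and 1 marker gene called. Means of probe sets left 1 member higher. Filtering at the 75th percentile called 1058 genes and 1 other pathway gene as higher. Among members it kept the call of Ddx58, lost that of Eif2ak2 and added Tlr3 as higher. Trend and robust variances called 1091 genes, 1 member lower (B2m) and 5 marker genes. An adjusted p under 0.10 called 1351 genes, 2 other pathway genes as higher and 5 marker genes. With replicates 2 and 3 alone, Ddx58 changed by 1.04 (adjusted p = 0.0408) and Eif2ak2 by 0.89 (adjusted p = 0.0397), 1 other pathway gene was higher, 1 lower and 1 marker gene was called, and the median was 0.067. Leaving out 1 array gave 0 to 274 genes in all (274 without control replicate 1), 0 to 0 members higher, 0 other pathway genes lower, 0 marker genes, a median of 0.015 to 0.139 and 0 to 1 exon usage calls. The splicing index called 0. Quantile normalization and median centring kept both members' calls. Of the named genes, Ifnar2 alone changed sign, at 0.01 without control replicate 1 (range -0.18 to 0.01). The cause of these differences was not tested.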
